A study of Mus musculus with 9 samples.

Results

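The genes considered here encode 10 neuropeptide precursors of sensory neurons: Calca, Calcb, Tac1, Adcyap1, Gal, Nppb, Npy, Vip, Nmb and Cartpt. They were taken by symbol from the table of raw read counts, where all 10 were found once among 55247 genes. Sequencing covered ganglia of the dorsal roots (DRG) taken from mouse embryos at E18.5, in 3 libraries for each of 3 genotypes. Ganglia labelled WT are the reference without the alleles below. Isl1Cre/+ ganglia carried Cre in 1 copy of Isl1, a homeobox gene of sensory neurons, so Cre could be made in any cell that expresses Isl1, and their Isl1 counts were lower than in WT (4840 to 5719 against 6030 to 8182). Isl1Cre/+::Meis2LoxP/LoxP ganglia, called mutant below, carried the same Cre allele and a Meis2 gene with exon 8 flanked by LoxP sites, so Isl1Cre/+ rather than WT shares the Cre allele with them. The Meis2 line had been backcrossed to C57BL/6. Whole ganglia were used, so neurons, glia, vessels and any attached tissue contributed RNA. Where a level differs in such bulk samples, fewer cells of a type and less RNA per cell cannot be told apart.

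Neuropeptides are cut from larger precursors in dense-core granules and released from the peripheral and central endings of sensory neurons, where they act on G protein-coupled receptors or, for natriuretic peptides, on receptors with guanylyl cyclase activity. CGRP and substance P define the peptidergic class of nociceptors and act on blood vessels in the skin and on neurons of the dorsal horn. Other peptides of the ganglion mark itch neurons, rise after nerve injury or belong mainly to autonomic and central neurons.

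The targeted gene followed the labels. Meis2 had 2919, 2902 and 2746 counts (WT), 2806, 2857 and 2537 (Isl1Cre/+) and 1084, 1073 and 1004 (mutant). The libraries held 23854607 to 29103444 counts. By median rank correlation with the other libraries, mutant 2 (0.979) and WT 1 (0.981) stood below the rest (at least 0.991). The 7 pan-sensory neuron markers, Prph and Pou4f1 among them, were all measured and none met the criterion in any comparison. Markers of red cells and muscle differed, with all 5 tested erythroid genes and all 5 tested skeletal muscle genes lower in Isl1Cre/+ than in WT and higher in mutant than in Isl1Cre/+ ganglia. The erythroid genes summed to 891 to 2120 CPM in WT, 341 to 975 in Isl1Cre/+ and 1203 to 3937 in mutant libraries, and the muscle genes to 88.1 to 712, 50.6 to 115 and 91.6 to 1625 CPM. Of 5 endothelial genes, Kdr and Pecam1 were higher in Isl1Cre/+ than in WT (log2 fold change 0.52 and 0.35) and Kdr was lower in mutant than in Isl1Cre/+ ganglia (-0.37). Of 10 sympathetic neuron genes 4 were tested. Dbh and Slc6a2 were lower in Isl1Cre/+ than in WT, and Dbh was higher in mutant than in Isl1Cre/+ ganglia. Th was lower in mutant than in WT ganglia (-0.31). Dbh and Slc6a2 passed the filter only through WT 2 (138 and 166 counts), so their calls against WT are tied to that library. None of the red cell, muscle, endothelial and sympathetic calls had an adjusted p under 0.05 by edgeR. Of all tested genes, 1.4% met the criterion in Isl1Cre/+ against WT, 1.67% in mutant against Isl1Cre/+ and 0.318% in mutant against WT. None of the tested glial (6 of 6), fibroblast (6 of 6), macrophage (5 of 6) and motor neuron (1 of 5) markers met the criterion. The part of all these cell types in the neuropeptide values was not tested.

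Calca and Calcb encode the alpha and beta forms of CGRP, and Calca also encodes calcitonin by alternative splicing, so a count per gene does not separate the 2 products of Calca. Both genes lie on chromosome 7 of GRCm38, Calca at 114631478 to 114636357 on the minus strand and Calcb at 114718643 to 114723365 on the plus strand. Their most similar coding stretches of 84 bases, the sequenced read length, are shown because only uniquely mapped reads were counted. Mapped reads were shorter, since molecular identifiers were extracted before alignment. The bases that differ are in capitals, and each stretch spans an intron.
Calca-201 (chr7:114632517-114634468, minus strand): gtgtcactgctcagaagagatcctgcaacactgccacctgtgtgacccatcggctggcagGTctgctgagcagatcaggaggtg
Calcb-201 (chr7:114720214-114722057, plus strand): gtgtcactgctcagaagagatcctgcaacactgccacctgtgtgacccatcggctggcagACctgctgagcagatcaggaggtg
The stretches differed at 2 of 84 bases. Over 18 pairs of coding transcripts of the GENCODE M21 annotation, none shared an identical window of 84 bases, and the longest identical run was 61 bases. Reads in this stretch are therefore told apart by few bases at most, and the counts of both genes there may be less certain than elsewhere. Windows of the mapped length were not compared, and how many reads were ambiguous was not tested.

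Calca had the highest level per exon length of the 10 genes in every library. Levels are given as CPM, read counts scaled to the TMM-normalized library size. Its CPM were 335, 339 and 365 for WT, 313, 353 and 394 for Isl1Cre/+ and 416, 396 and 371 for the mutant. All 3 mutant libraries lay above all 3 WT libraries, while the Isl1Cre/+ libraries overlapped both groups. The log2 fold change was 0.19 (SE 0.091, 95% interval -0.028 to 0.40) in mutant against WT and 0.16 (-0.068 to 0.38) in mutant against Isl1Cre/+ ganglia. Neither met the criterion of the study, a fold change of at least 1.2 with an unadjusted p under 0.05 (edgeR quasi-likelihood test, unadjusted p = 0.0796 and 0.143, adjusted p = 0.9999 and 0.9997). By the DESeq2 Wald test the unadjusted p in mutant against WT was 0.0358 at a log2 fold change of 0.20, below the fold change of the criterion. The value against Isl1Cre/+ was 0.078 without Isl1Cre/+ 1 and 0.24 without Isl1Cre/+ 3 (unadjusted p = 0.0381 by edgeR), also below that fold change. In Isl1Cre/+ against WT the value was 0.039 (-0.21 to 0.29).

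Calcb was measured at a lower level per exon length than Calca in every library. Its CPM were 23.1, 29.5 and 28.1 for WT, 24.4, 29.2 and 33.4 for Isl1Cre/+ and 30.6, 30.9 and 29.3 for the mutant. The groups overlapped, and the mutant libraries spread less than the others (CV 2.83% against 12.4% in WT and 15.6% in Isl1Cre/+). The log2 fold change in mutant against WT was 0.17 (-0.088 to 0.42), and 0.071 without WT 1. It was 0.063 (-0.20 to 0.33) in mutant against Isl1Cre/+ and 0.12 (-0.24 to 0.47) in Isl1Cre/+ against WT ganglia.

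Tac1 encodes substance P and neurokinin A. Its CPM were 101, 133 and 133 for WT, 141, 129 and 192 for Isl1Cre/+ and 147, 123 and 125 for the mutant. Isl1Cre/+ 3 was the highest library and WT 1 the lowest, and all groups overlapped. The largest difference was between Isl1Cre/+ and WT, a log2 fold change of 0.35 (-0.084 to 0.77, unadjusted p = 0.0994). It became 0.15 without Isl1Cre/+ 3. The unadjusted p was 0.0368 when genes with low counts were kept (adjusted p = 0.939) and 0.0394 with the replicate number as a block, so the call for Tac1 depends on these choices. The mutant values were 0.11 (-0.21 to 0.42) against WT and -0.23 (-0.58 to 0.13) against Isl1Cre/+, the latter -0.041 without Isl1Cre/+ 3. Over the 9 libraries, Pearson's r of Tac1 was -0.752 with the summed erythroid genes (Spearman's rho = -0.817). It was -0.628 with the macrophage genes (rho = -0.85) and -0.614 with the muscle genes (rho = -0.783). Over all gene lists r of Tac1 ran from -0.752 to 0.542 (motor neuron markers). The part of these cell types in the Tac1 values was not tested.

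Adcyap1 encodes PACAP, a peptide of nociceptors that also acts on mast cells and vessels. Its CPM were 87.8, 136 and 133 for WT, 102, 116 and 151 for Isl1Cre/+ and 139, 112 and 118 for the mutant. The groups overlapped throughout. The log2 fold change was 0.052 (-0.36 to 0.46) in mutant against WT, and -0.12 without WT 1. Against Isl1Cre/+ it was -0.00047 (-0.35 to 0.35), and Isl1Cre/+ against WT gave 0.061 (-0.44 to 0.56). Over the 9 libraries Adcyap1 had r = 0.826 with the 5 summed motor neuron markers (11.9 to 18.7 CPM in WT, 13.8 to 16.8 in Isl1Cre/+ and 13.5 to 15.9 in mutant libraries). This value was picked from the correlations of all members with all gene lists. With the same sum, r was 0.627 for Calcb, 0.542 for Tac1 and -0.634 for Gal. Nearly all of that sum was Slc5a7, the choline transporter (mean 15.2, 15.2 and 14.4 CPM), while the defining motor neuron genes were near 0, with 1 to 3 counts of Chat, 0 to 4 of Lhx3 and 0 to 1 of Mnx1 per library.

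**Figure D1:**
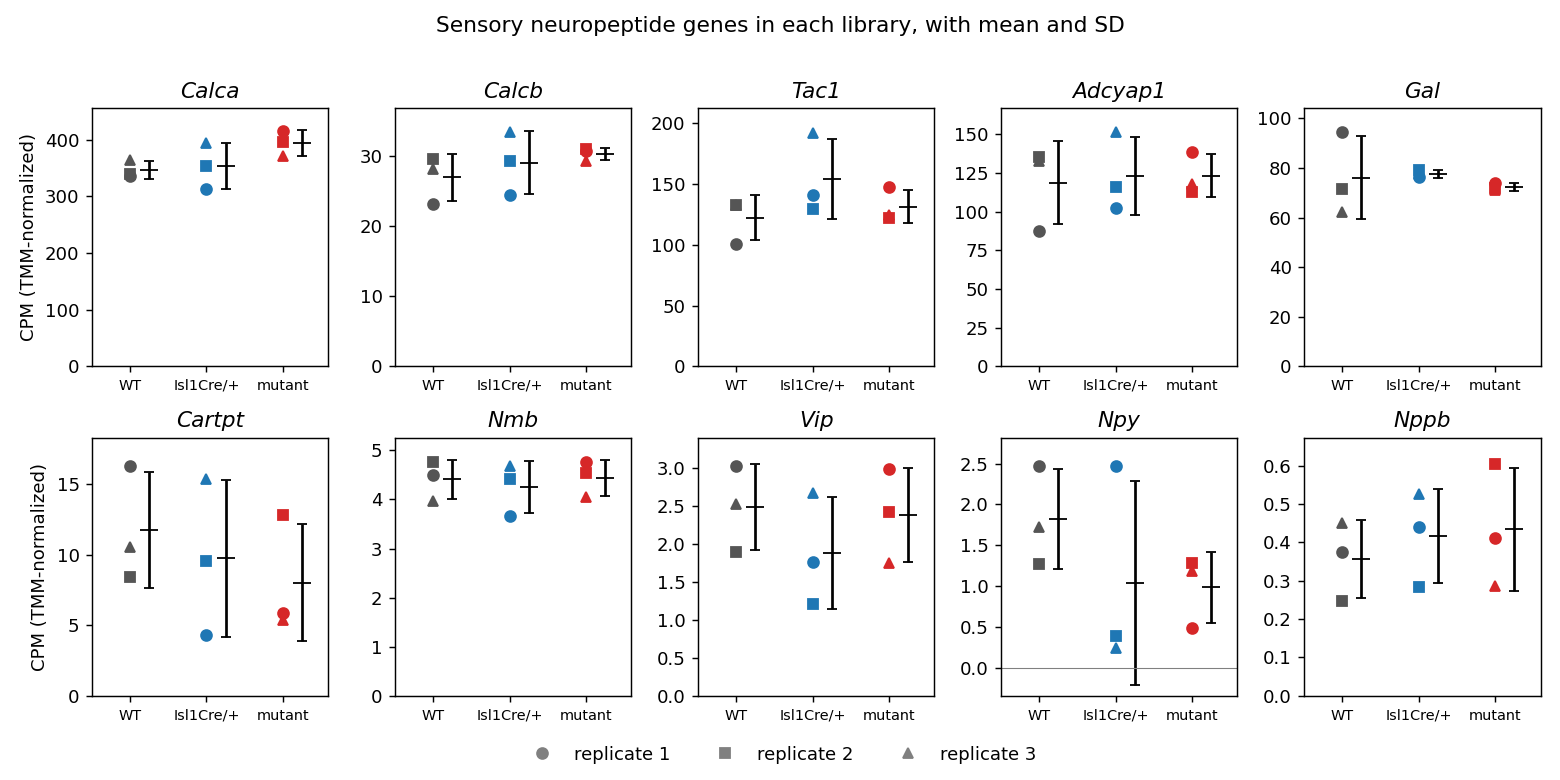
CPM of each of the 10 genes (vertical axis) in the 9 libraries by genotype; coloured symbols are libraries, with shape giving the replicate number, and black bars are mean and SD of 3. The mutant libraries of Calca lie above the WT libraries, Gal is tight in Isl1Cre/+ and mutant but not in WT, and Cartpt and Npy spread widely within genotypes, the SD of Npy in Isl1Cre/+ reaching below 0.

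The 4 genes above moved together among libraries of the same genotype. After the genotype mean was subtracted from log2 CPM, Pearson's r over the 9 libraries was 0.912 for Adcyap1 and Tac1, 0.899 for Adcyap1 and Calcb, 0.791 for Calca and Calcb, 0.748 for Calcb and Tac1, 0.724 for Adcyap1 and Calca and 0.682 for Calca and Tac1. Without that subtraction, r among these genes ran from 0.393 (Calca and Tac1, rho = 0.2) to 0.853 (Adcyap1 and Calcb). The values are a description of 9 libraries, and genes of 1 library share its depth, normalization and cell makeup. Npy went the other way, with r of -0.847 with Calca, -0.825 with Calcb and -0.746 with Adcyap1, at counts of 7 to 73. Gal did not follow the 4 genes (r from -0.64 with Adcyap1 to -0.208 with Calca).

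**Figure D2:**
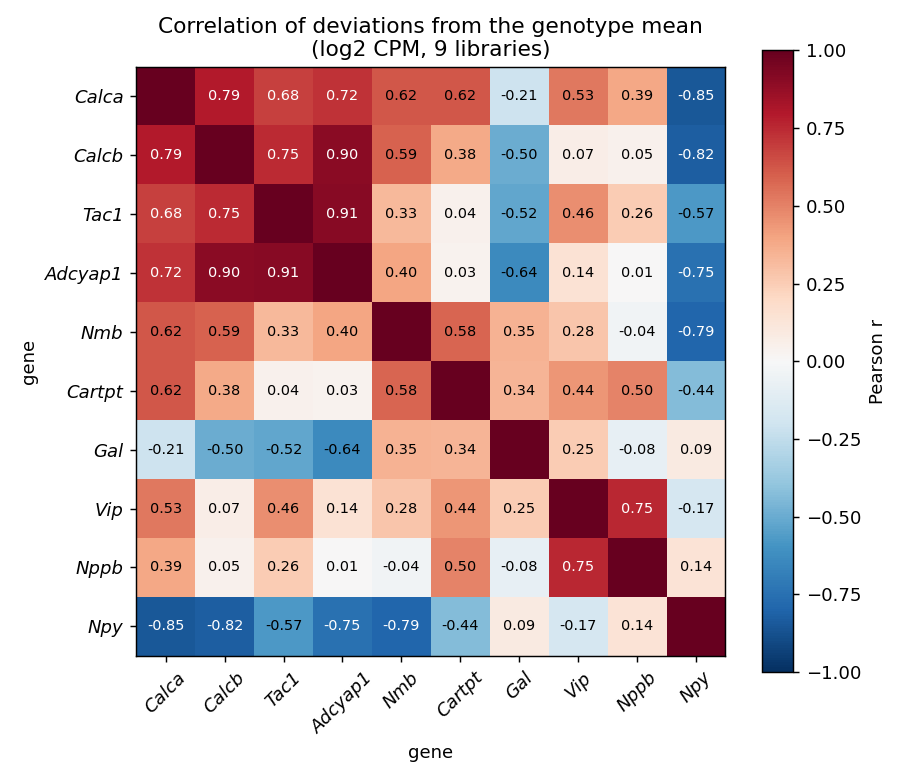
Pearson's r between the 10 genes (both axes) of log2 CPM after subtracting the mean of each genotype, over 9 libraries. Calca, Calcb, Tac1 and Adcyap1 form a block of values from 0.682 to 0.912, and Npy is negative to each of them.

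The promoters of Calca, Tac1 and Adcyap1 are shown because these genes moved together, with that of Cartpt for comparison, whose r within genotypes was 0.0341 with Adcyap1, 0.0425 with Tac1, 0.382 with Calcb and 0.619 with Calca. The windows run from 250 bases before to 50 after the RefSeq start (GRCm38.p6), and capitals mark TGACG or its reverse complement CGTCA, the shorter form of the cyclic AMP response element.
Calca (chr7:114636308-114636607, minus strand): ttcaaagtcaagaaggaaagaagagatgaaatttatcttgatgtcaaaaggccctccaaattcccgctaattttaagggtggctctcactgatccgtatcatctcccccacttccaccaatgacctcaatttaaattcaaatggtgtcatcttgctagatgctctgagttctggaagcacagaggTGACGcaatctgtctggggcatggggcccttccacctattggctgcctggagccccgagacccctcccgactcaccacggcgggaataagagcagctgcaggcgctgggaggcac
Tac1 (chr6:7554811-7555110, plus strand): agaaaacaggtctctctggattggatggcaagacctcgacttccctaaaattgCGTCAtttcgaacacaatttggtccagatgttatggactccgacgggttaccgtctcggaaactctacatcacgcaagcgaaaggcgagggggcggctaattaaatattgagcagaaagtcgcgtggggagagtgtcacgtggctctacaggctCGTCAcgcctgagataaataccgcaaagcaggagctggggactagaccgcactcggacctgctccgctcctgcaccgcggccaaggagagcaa
Adcyap1 (chr17:93198767-93199066, plus strand): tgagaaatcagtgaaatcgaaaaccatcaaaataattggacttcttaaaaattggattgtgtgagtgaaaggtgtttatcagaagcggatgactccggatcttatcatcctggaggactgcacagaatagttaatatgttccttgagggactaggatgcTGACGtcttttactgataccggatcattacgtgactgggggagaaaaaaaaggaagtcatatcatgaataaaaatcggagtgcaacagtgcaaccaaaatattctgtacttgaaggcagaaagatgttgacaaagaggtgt
Cartpt (chr13:99900634-99900933, minus strand): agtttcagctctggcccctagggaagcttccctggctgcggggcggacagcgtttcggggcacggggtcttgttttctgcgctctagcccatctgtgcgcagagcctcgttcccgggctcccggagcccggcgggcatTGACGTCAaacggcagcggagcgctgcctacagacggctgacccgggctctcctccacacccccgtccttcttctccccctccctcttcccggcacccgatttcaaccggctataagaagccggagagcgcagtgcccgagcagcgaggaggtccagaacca
The table held 10 windows for 9 of the genes, 2 of them for Adcyap1, of which the upstream one is shown, and none for Calcb. TGACG on either strand was in 7 of the 10 windows (6 genes) and in 20.8% of all 32851 windows. The longer TGACGTC, which contains TGACG, was in 4 of the 10 windows (Adcyap1, Cartpt and Vip) and in 3.21% of all windows. The 2 windows of Adcyap1 overlap and hold the same match. These are matches of letters and not sites shown to be bound.

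Gal encodes galanin, an inhibitory peptide that rises in sensory neurons after nerve injury. Its CPM were 94.6, 71.3 and 62.1 for WT, 76.2, 79.4 and 77.5 for Isl1Cre/+ and 73.9, 72.1 and 71.0 for the mutant. All mutant libraries lay below all Isl1Cre/+ libraries, and the WT libraries spanned both groups. In Isl1Cre/+ and mutant ganglia the libraries differed by no more than counting error (chi-square over its degrees of freedom 0.915 and 0.723), against 102 in WT. The log2 fold change in mutant against Isl1Cre/+ was -0.10 (-0.22 to 0.018, unadjusted p = 0.0839), smaller than the fold change of 1.2 at both ends of its interval. With the summed pan-sensory neuron markers as library size it was -0.044. Against WT it was -0.071 (-0.42 to 0.28), and 0.12 without WT 1. Isl1Cre/+ against WT gave 0.046 (-0.28 to 0.37). Over the 9 libraries, Gal had r = 0.81 with the summed pan-sensory neuron markers, while the other 6 tested genes had r from -0.527 (Calcb) to 0.233 (Nmb).

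Cartpt encodes CART peptides. Its CPM were 16.3, 8.42 and 10.5 for WT, 4.30, 9.53 and 15.4 for Isl1Cre/+ and 5.87, 12.8 and 5.39 for the mutant. The groups overlapped, and the CV within a genotype was 34.8% to 56.9%, while counting error alone would give 5.54% to 6.92%. The log2 fold change in mutant against WT was -0.55 with an interval from -1.44 to 0.34. Without mutant 2 it was -1.03 and met the criterion (unadjusted p = 0.00811), so this library decides the call. Mutant against Isl1Cre/+ gave -0.28 (-1.42 to 0.87) and Isl1Cre/+ against WT -0.25 (-1.27 to 0.77).

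The gene whose log2 CPM was most like that of Cartpt among all tested genes was Hoxd11 (r = 0.974, rho = 0.95, 9 libraries), followed by Hoxd10 (r = 0.972), homeobox genes of the posterior trunk. Hoxd11 had 4.42, 2.75 and 2.52 CPM (WT), 1.15, 2.35 and 3.83 (Isl1Cre/+) and 1.31, 3.67 and 1.22 (mutant). Its counts ran from 30 (mutant 3) to 118 (WT 1). It passed the filter only through WT 1 and Isl1Cre/+ 3, which were also the highest libraries for Cartpt. WT 1, Isl1Cre/+ 3 and mutant 2 were the highest libraries of their genotypes for Cartpt, Hoxd10 and Hoxd11 alike. Without the libraries farthest from the median of Hoxd11 (Isl1Cre/+ 1 and mutant 3), r was 0.953, and within genotypes it was 0.972. Of 24 tested Hox genes, Hoxd10 and Hoxd11 were the ones with r above 0.9, and the median r was 0.292. Next were Hoxb2 (0.628) and Hoxc10 (0.591), while Hoxa10 had 0.469 and Hoxd9 0.424. Hoxd10 was looked at after its values were seen. Whether the axial levels of the collected ganglia differed between libraries was not tested.

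**Figure D3:**
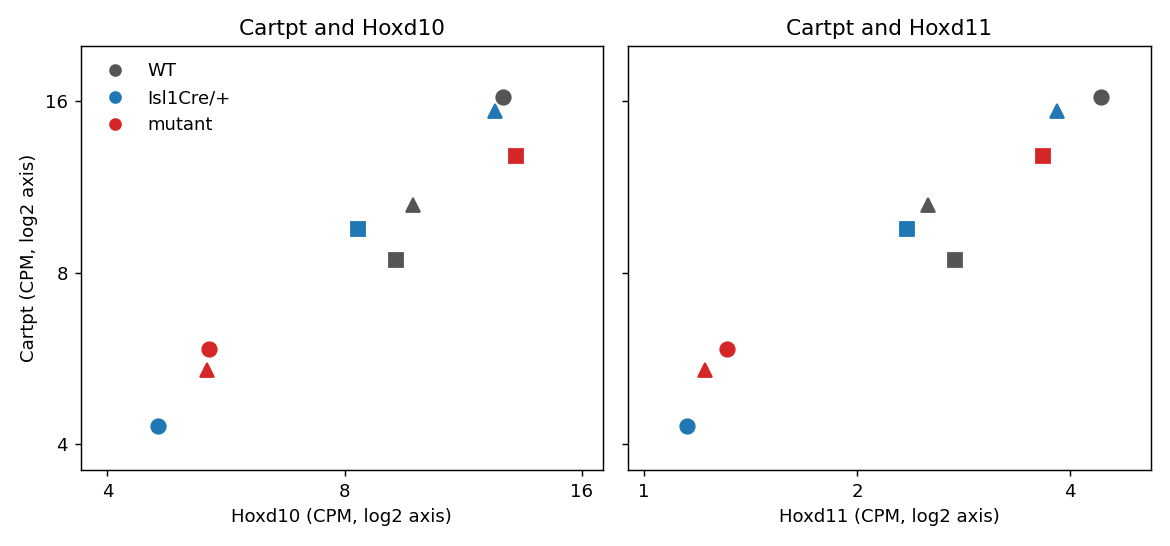
Cartpt (vertical axis, CPM) against Hoxd10 (left) and Hoxd11 (right) on log2 axes; each symbol is 1 of 9 libraries, coloured by genotype, with shape giving the replicate number. Libraries of the 3 genotypes are interleaved, and those high in 1 gene are high in the other, with Isl1Cre/+ 1 lowest and WT 1 highest for Cartpt.

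Nmb encodes neuromedin B, an itch and pain peptide. Its CPM were 4.49, 4.75 and 3.97 for WT, 3.66, 4.41 and 4.67 for Isl1Cre/+ and 4.75, 4.53 and 4.04 for the mutant. The groups overlapped, and the log2 fold change in mutant against WT was 0.012 (-0.37 to 0.40). It was 0.067 (-0.30 to 0.44) against Isl1Cre/+, and -0.043 (-0.42 to 0.34) in Isl1Cre/+ against WT. Of the 793 exon bases of Nmb, 163 are shared with exons of Sec11a on the same strand, so the counts of Nmb depend on how reads in the shared part were assigned.

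The other 3 genes stayed below 100 counts in every library and were not among the 13200 genes tested. Npy, a peptide of sympathetic and central neurons, had 66, 36 and 50 counts (WT), 73, 11 and 7 (Isl1Cre/+) and 13, 34 and 29 (mutant). The counts of the mutant libraries lay below those of WT, but in CPM mutant 2 (1.28) was level with WT 2 (1.27), and Isl1Cre/+ 1 stood far above the other Isl1Cre/+ libraries. In a fit without the filter its log2 fold change in mutant against WT was -0.86 (-1.59 to -0.13, unadjusted p = 0.0235, adjusted p = 0.997), and an exact permutation test over the CPM of the 3 against 3 libraries gave p = 0.2, where 0.1 is the smallest possible. The fitted value was -0.10 (-1.31 to 1.11) in mutant against Isl1Cre/+ and -0.78 (-1.97 to 0.41) in Isl1Cre/+ against WT ganglia. The 10 spinal interneuron markers summed to 5.60 to 8.39 CPM in WT, 1.35 to 2.10 in Isl1Cre/+ and 2.69 to 5.14 in mutant ganglia, with Slc32a1 at 0 counts in the 3 Isl1Cre/+ libraries. The 10 sympathetic neuron genes summed to 24.9 to 42.1, 20.9 to 23.98 and 20.4 to 30.3 CPM. Among them Dbh, the enzyme that makes noradrenaline, had 10, 138 and 42 counts (WT), 0, 10 and 0 (Isl1Cre/+) and 10, 13 and 48 (mutant), and Slc6a2, the noradrenaline transporter, 5, 166 and 35, 1, 8 and 1, and 2, 7 and 58. For both genes WT 2 was the highest library, while for Npy it was the lowest of WT. The part of either marker list in the Npy values was not tested.

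Vip, a peptide of autonomic neurons that also appears in injured sensory neurons, had 81, 54 and 73 counts (WT), 52, 34 and 76 (Isl1Cre/+) and 80, 64 and 43 (mutant). Nppb, the itch peptide BNP, had 10, 7 and 13 counts (WT), 13, 8 and 15 (Isl1Cre/+) and 11, 16 and 7 (mutant). Both overlapped in all groups. In the fit without the filter, the log2 fold change in mutant against WT was -0.024 (-0.57 to 0.52) for Vip and 0.31 (-0.59 to 1.203) for Nppb. For Nppb the spread was near that of counting (chi-square over its degrees of freedom 0.842 to 1.51), and no difference between genotypes was detected at this depth.

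Per length, as CPM per kb of merged exons, the mean levels in WT were 205.8 ± 9.61 (SD, n = 3) for Calca, 96.5 ± 21.3 for Gal, 35.9 ± 5.45 for Tac1, 31.4 ± 7.11 for Adcyap1, 21.3 ± 2.64 for Calcb, 9.19 ± 3.20 for Cartpt, 5.56 ± 0.500 for Nmb, 3.22 ± 1.07 for Npy, 0.731 ± 0.167 for Vip and 0.457 ± 0.131 for Nppb. The order of the means was the same in all 3 genotypes. Neighbours whose libraries overlapped in WT were Tac1 and Adcyap1, Adcyap1 and Calcb, and Vip and Nppb. Cartpt and Nmb, and Npy and Vip, overlapped in the other genotypes only. Together the 10 genes took 0.0613% to 0.0885% of all counts.

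None of the 7 tested genes met the criterion in any comparison by edgeR, and none did by DESeq2 or limma voom. The shares of all tested genes that did were 0.318% in mutant against WT, 1.67% in mutant against Isl1Cre/+ and 1.4% in Isl1Cre/+ against WT. By edgeR, 0 of 7 had an unadjusted p under 0.05, against 0.371%, 2.73% and 1.79% of all tested genes, and 0 of 7 an adjusted p under 0.05, against 0.00758%, 0.00758% and 0%. Libraries did not overlap for 1 of 7 in mutant against WT (Calca), 1 of 7 in mutant against Isl1Cre/+ (Gal) and 0 of 7 in Isl1Cre/+ against WT, against 2.76%, 7.65% and 5.66% of all tested genes. The median log2 fold changes of the 7 genes were 0.052, -0.00047 and 0.046, and those of all tested genes -0.0094, 0.00029 and -0.0016. The intervals of Calca, Calcb, Tac1, Adcyap1, Gal and Nmb in mutant against WT lay within -0.42 and 0.46, so for these 6 genes larger changes were outside the intervals, while for Cartpt the interval reached -1.44. The comparisons share libraries and are not independent.

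**Figure D4:**
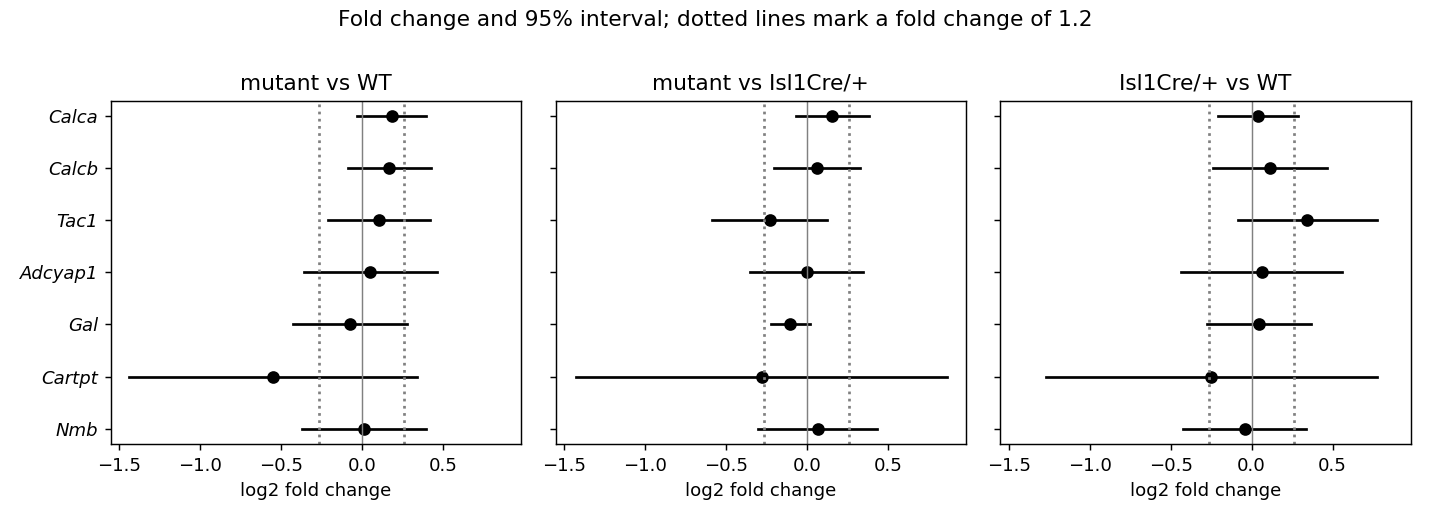
Log2 fold change (horizontal axis) with its 95% interval for the 7 tested genes in each comparison; dotted lines mark a fold change of 1.2. Every interval includes 0, and those of Cartpt are the widest.

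Genes that process these peptides and genes of their receptor families were examined by the same criterion. Of 16 genes of precursor processing and dense-core granules, all were tested and 0 met the criterion in the 3 comparisons, with median log2 fold changes of -0.059, -0.024 and 0.017 in the order above. Cpe, the carboxypeptidase that trims precursors, was the most abundant enzyme per length (303.1 CPM per kb), and Scg3, a granin-binding granule protein, the most abundant granule protein (150.9). Of 24 receptor genes 13 were tested and 0 met the criterion. For CGRP, Crcp, an intracellular component of receptor signalling that is also a subunit of RNA polymerase III, was at 32.3 CPM per kb. Calcrl, a receptor chain, was at 5.59. In the same receptor group Ramp2 was at 7.65, Ramp3 at 4.33 and Ramp1 at 0.813 (25 to 193 counts). The most abundant receptors of the other families per length were Npr2 (18.9), Npy1r (7.05), Tacr3 (1.09), Adcyap1r1 (1.004), Galr1 (0.827) and Grpr (0.226), the last at 7 to 26 counts and not tested. In the same families Npr1 (1.15), Tacr1 (0.315) and Nmbr (0.104) were lower. The most abundant gene of a family need not be the receptor of the peptide considered here.

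Among 25 other precursor genes 3 were tested. Of these, 1 met the criterion in mutant against WT ganglia, against 0.318% of all tested genes. This was Nts, which encodes neurotensin (3.15, 3.20 and 3.59 CPM in WT, 1.98, 2.76 and 2.12 in mutant). It had 84 to 104 counts in WT, 68 to 76 in Isl1Cre/+ and 52 to 73 in mutant libraries. Nts thus passed the filter only through WT, the group where it is high, and its call is tied to that selection. The log2 fold change was -0.53 (-1.04 to -0.030, unadjusted p = 0.0406, adjusted p = 0.9999 by edgeR). Isl1Cre/+ libraries had 2.57, 2.42 and 2.63 CPM, all below the WT libraries (log2 fold change -0.37, -0.76 to 0.017), and mutant against Isl1Cre/+ gave -0.15 (-0.65 to 0.35), so neither of these met the criterion. Of 9 peptidergic nociceptor genes, Trpv1, the heat and capsaicin channel, fell in mutant against WT ganglia, from 52.1, 62.4 and 53.4 to 41.3, 43.0 and 43.3 CPM (log2 fold change -0.39, -0.62 to -0.17, unadjusted p = 0.00387, adjusted p = 0.9999 by edgeR). In Isl1Cre/+ ganglia Trpv1 was at 44.3, 48.0 and 62.6 CPM, and mutant against Isl1Cre/+ gave -0.28 (-0.57 to 0.013) with no overlap of libraries, short of the criterion. The other 8 genes of that list, Prdm12 among them, did not meet the criterion.

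Over the 9 libraries, the tested gene most like each member was Arl1 for Calca (r = 0.897), 1500011B03Rik for Calcb (0.938), Gpr149 for Tac1 (0.931), Micu3 for Adcyap1 (0.991), Mapk3 for Gal (0.973) and Mdp1 for Nmb (0.90). Without the 2 libraries farthest from the member's own median, r was 0.73 for Gal, 0.783 for Nmb, 0.792 for Calcb, 0.796 for Calca, 0.931 for Tac1 and 0.988 for Adcyap1. Each is the highest value among all tested genes, over 9 libraries in which genes share depth, normalization and cell makeup, and is given as a description.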

How the data were processed

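RNA was measured in 9 libraries of E18.5 DRG, 3 per genotype, grouped by their labels. The authors selected poly(A) RNA, added unique molecular identifiers and sequenced single-end reads of 84 bases. They extracted the identifiers, then aligned the reads to mm10 with STAR 2.7.10 and removed duplicates with UMI-tools. The deposited counts are of uniquely mapped reads per gene from HTSeq 0.6. The annotation release and strand setting are not given in the sources used here. The deposited columns of the authors' own comparisons (log2 fold changes and mean log2 expression, p-values, and scores, the moderated statistic and log odds, from limma voom) were not used.

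The 13200 genes that reached 100 counts in 1 or more libraries were fitted separately for each pair of genotypes (R 4.3.3, edgeR 4.0.16, TMM, two-sided quasi-likelihood test), with Benjamini-Hochberg adjustment over all genes tested. Intervals of 95% came from the fit. Correlations used log2 CPM with a prior count of 2. The fit was tested on simulated data. Libraries held 23854607 to 29103444 counts; the study describes its replicates as biological and its experiments as independently repeated, without giving the animals or litters behind each library, and p-values measure the spread between these libraries. The named genes were all 10 members, Meis2 and Isl1, genes of the lists of related peptide, receptor and nociceptor genes that met the criterion, the most abundant gene per length of each role, and the nearest gene to each member; other genes, such as cell type markers, were named after their values were seen. Members and lists were chosen with earlier results of these data known. Positions and exons are from GENCODE M21 (GRCm38), and promoters from RefSeq. Alternatives were another normalization, filter, test, fold threshold, a replicate block, and each library left out.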

Additional observations from a re-analysis of the deposited data

How the results depend on the processing

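The count of members meeting the criterion stayed at 0 except as follows. Without a filter on low counts it was 1 in mutant against WT (Npy) and 1 in Isl1Cre/+ against WT (Tac1, 0.36). With the replicate block it was 1 in Isl1Cre/+ against WT (Tac1, log2 fold change 0.34). Leaving out 1 library gave 0 to 1 in mutant against WT (1, Cartpt, without mutant 2) and 0 in the other comparisons. The cause was not tested. The labels do not say whether the replicate numbers pair the libraries. Correlations of the deviations of same-numbered libraries ran from -0.595 to 0.389. Differently numbered libraries were not compared, so these values cannot decide it. The block changed no other member's call.

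The number of all tested genes meeting the criterion was 42 in mutant against WT, and 11 with summed pan-sensory neuron markers as library size, 408 without a filter, 7 at a fold change of 1.5, and 40 to 132 with 1 library left out (132 without WT 1, 120 without mutant 1, 74 without mutant 2, 67 without WT 3). In mutant against Isl1Cre/+ it was 221, and 1028 without a filter, 139 with 100 counts in every library, 138 at a fold change of 1.5, 360 with no fold change required, and 167 to 407 with 1 library left out (407 without mutant 1). In Isl1Cre/+ against WT it was 185, and 845 without a filter, 104 with 100 counts in every library, 105 at a fold change of 1.5, and 102 to 340 with 1 library left out (102 without Isl1Cre/+ 3, 340 without WT 1).

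Of 312 recomputed log2 fold changes of members, 279 kept their direction and side of the criterion, 3 newly met it and 30 changed sign, none of these past the criterion. In mutant against Isl1Cre/+, Adcyap1 changed sign to 0.0027 with DESeq2 size factors, 0.0026 with the DESeq2 test, 0.046 with the neuron markers as library size, 0.014 with 100 counts in every library, 0.013 with limma voom and 0.013 with the replicate block. In mutant against WT, Gal was 0.034 with the neuron markers as library size. With 1 library left out, the values in mutant against WT ran from -0.12 to 0.16 for Adcyap1, -0.20 to 0.12 for Gal, -0.057 to 0.075 for Nmb, -0.015 to 0.17 for Tac1, 0.15 to 0.23 for Calca, 0.071 to 0.24 for Calcb and -1.03 to -0.24 for Cartpt. In mutant against Isl1Cre/+ they ran from -0.12 to 0.17 for Adcyap1, -0.048 to 0.18 for Calcb, -0.78 to 0.22 for Cartpt, -0.030 to 0.14 for Nmb, 0.078 to 0.24 for Calca, -0.34 to -0.041 for Tac1 and -0.12 to -0.087 for Gal. In Isl1Cre/+ against WT they ran from -0.13 to 0.18 for Adcyap1, -0.053 to 0.12 for Calca, -0.0060 to 0.23 for Calcb, -0.75 to 0.11 for Cartpt, -0.075 to 0.21 for Gal, -0.12 to 0.058 for Nmb and 0.15 to 0.46 for Tac1. Counts limited Nppb and Nmb, whose libraries spread about as counting error would (chi-square over its degrees of freedom 0.842 to 1.51 and 0.752 to 1.90). Npy and Vip had few counts and also spread beyond counting error (5.10 to 42.8 and 3.58 to 8.18).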
